A study of Mus musculus with 8 samples.

Results

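Gut epithelial cells move sodium, protons, chloride, bicarbonate, phosphate and zinc through carriers that belong to a small number of solute carrier gene families. Described here are the protein-coding genes whose symbols place them in the Slc4, Slc9, Slc12, Slc20, Slc24, Slc26, Slc30, Slc34 and Slc39 families. There are 76 of them among 20229 protein-coding genes, and among 40178 genes of any type, in the colon and ileum count tables. By family there are 11 Slc4, 11 Slc9, 9 Slc12, 2 Slc20, 5 Slc24, 11 Slc26, 10 Slc30, 3 Slc34 and 14 Slc39 genes. The symbols Slc9a3r1, Slc9a3r2 and Slc4a1ap fall under the same rule but do not name transporters. Slc9a3r1 and Slc9a3r2 encode the NHERF scaffold proteins, which hold membrane transporters in place, and Slc4a1ap encodes a protein named after the anion exchanger Slc4a1. Both tables list 68 of the 76 genes, the ileum table alone lists 7 more and the colon table alone 1 more. Those 8 had at most 6 counts in any library.

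In absorptive cells, apical exchangers of the Slc9 family take up sodium against protons while Slc26a3 and Slc26a6 take up chloride against bicarbonate, and together they absorb salt. Slc12a2 on the basolateral side loads cells with chloride for secretion, and Slc4a4 and Slc4a7 bring in bicarbonate. Slc34a2 takes up phosphate from the lumen of the small intestine, Slc39 proteins carry zinc into the cytosol, and Slc30 proteins carry zinc out of it.

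The libraries were made from ribosome-depleted, stranded RNA of epithelial cells that EDTA released from the ileum or the colon of 8-week-old mice. WT mice carried DDX5(+/+) with Vil1Cre(+), and DDX5KO mice carried DDX5(fl/fl) with Vil1Cre(+), so the Cre transgene was present in both genotypes. Each tissue had 2 libraries of each genotype, 8 libraries in all. Colon and ileum libraries of the same genotype and replicate number were taken to come from one mouse, which the labels do not state. Cre under the Villin1 promoter deletes Ddx5 in epithelial cells and leaves it in other cells of the gut, and the count of a gene covers all of its exons, those kept after deletion included. In the order replicate 1, replicate 2, which is used for every list of values here, the libraries held 17385217 and 20393824 counts in WT colon, 16883951 and 19437275 in DDX5KO colon, 22984283 and 14878989 in WT ileum, and 11768205 and 11571061 in DDX5KO ileum. DDX5KO ileum 2 stood apart, with 19.5% of its counts on 3 repeat-like genes (95% Wilson interval 19.47% to 19.51%), against 4.05% and 3.93% in WT ileum (4.04% to 4.05% and 3.92% to 3.94%) and 0.226% in DDX5KO ileum 1 (0.223% to 0.229%). Such intervals cover counting error only. Of the colon libraries DDX5KO colon 1 stood apart, with 10.9% of its counts on nuclear genes that do not code for proteins, against 8.21% and 8.29% in WT colon and 6.45% in DDX5KO colon 2.

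Levels are given as CPM (counts scaled to a library of 1e+06 counts), normalized over all 8 libraries, and levels of different genes are compared only per kilobase of exon. A member was tested where its counts passed a filter with a minimum count of 10. That left 50 members in the colon, 51 in the ileum and 55 in the comparisons of tissues, and 21 members were tested nowhere. Fold changes between genotypes come from a fit within each tissue with the replicate number as a block. Genotype fits with 1 library left out took the other 7 libraries of both tissues and had no replicate block. They thus differ from this fit in more than the library. Genes count as called between genotypes where edgeR's quasi-likelihood p, unadjusted, is under 0.05 and the log2 fold change is 0.5 or more up or down. These cutoffs are the study's, but the study took its p from DESeq2 with a harvest covariate, so the calls here are not its calls. Between tissues the adjusted p has to be under 0.05 and the log2 difference 1 or more. By exact permutation, 2 mice against 2 can give no two-sided p below 0.333, so each p rests on spread shared across genes by the model. Each adjusted p, unless another tool is named, was made by the Benjamini-Hochberg method from edgeR's quasi-likelihood p over all genes tested.

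The tissue labels were checked against marker genes. All 6 epithelial markers, Epcam, Vil1, Cdh1, Krt8, Krt18 and Krt19, were present in every library, with a summed level from 10148 CPM in WT colon 2 to 15475 CPM in DDX5KO ileum 1. Of 6 markers of ileal enterocytes, 6 were higher in the ileum in both genotypes, as were 6 of 6 Paneth cell markers. Of 6 colonocyte markers, 5 were higher in WT colon, and Car4, a carbonic anhydrase, was higher in WT ileum. Hoxb13, a transcription factor of the distal gut, was at 195, 159, 282 and 165 CPM in the colon libraries and at no more than 0.42 CPM in any ileum library.

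Ddx5 RNA stood at 771 and 706 CPM in WT colon and at 367 and 355 CPM in DDX5KO colon. In the ileum it was 700 CPM in both WT mice and 340 and 326 CPM in DDX5KO mice. Every DDX5KO library lay below every WT library. The log2 fold change was −1.04 in the colon (adjusted p = 0.0866) and −1.07 in the ileum (adjusted p = 0.0270).

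Per kilobase, the transporter with the highest RNA level in WT colon was Slc26a3, the apical chloride and bicarbonate exchanger of surface colonocytes, at 99.3 ± 8.00 CPM per kb (SD, n = 2 mice). Slc12a2, the basolateral sodium, potassium and chloride cotransporter, followed at 93.0 ± 5.02 CPM per kb, a gap within the spread of the Slc26a3 values. Slc26a2, a sulfate transporter, was at 78.3 ± 7.83 CPM per kb, Slc20a1, a sodium-phosphate cotransporter found in most cells, at 58.8 ± 15.4, and Slc39a4, the apical zinc importer, at 53.8 ± 3.10 (SD, n = 2). In WT ileum Slc34a2, the intestinal sodium-phosphate cotransporter, ranked first among the transporters at 97.2 ± 4.13 CPM per kb (SD, n = 2). Slc39a4 was at 78.1 ± 13.4 CPM per kb, Slc12a2 at 71.2 ± 1.59, Slc39a5, a zinc importer of the basolateral side, at 60.2 ± 1.08 and Slc26a6, an apical anion exchanger, at 60.0 ± 6.07 (SD, n = 2). Slc39a5 and Slc26a6 did not differ beyond their spread. In DDX5KO colon the first place was again held by Slc26a3, at 167 ± 54.98 CPM per kb, with Slc26a2 at 127 ± 39.8, and in DDX5KO ileum Slc34a2 was at 103 ± 25.2 and Slc39a4 at 96.6 ± 33.8 (SD, n = 2). Both gaps were within the spread, and in DDX5KO ileum 1 Slc39a4 was not below Slc34a2. The scaffold Slc9a3r1, which is not a transporter, had a mean of 67.6 CPM per kb in WT colon, 82.5 in DDX5KO colon, 263.8 in WT ileum and 330.5 in DDX5KO ileum, the highest of all members in the ileum. At a mean of at least 100 CPM there were 16 members in WT colon and 18 in WT ileum, and 30 and 27 members had a mean under 1 CPM.

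**Figure D1:**
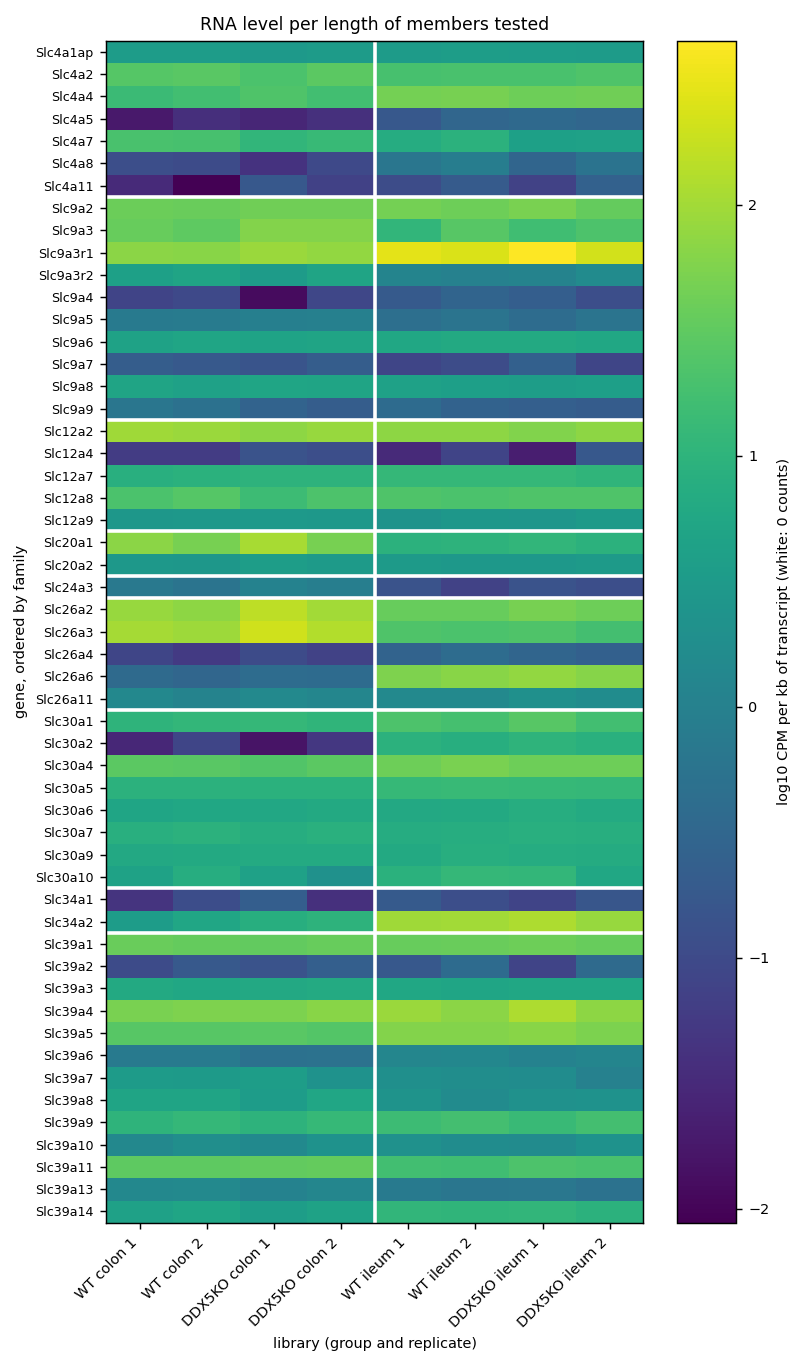
RNA level per length (log10 CPM per kb, color) of members tested, with genes by family down the side and the 8 libraries across. Slc26a3 is the brightest transporter in WT colon, at 99.3 CPM per kb on average, and Slc34a2 in WT ileum, at 97.2 CPM per kb, while the scaffold Slc9a3r1 is brighter still in the ileum.

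The comparison of genotypes in the colon asks which members differ when the epithelium lacks DDX5. In DDX5KO colon, RNA of the luminal salt exchangers Slc9a3 and Slc26a3, of the sulfate transporter Slc26a2 and of the phosphate cotransporter Slc34a2 was higher, by 1.57 to 1.93 times. The bicarbonate importer Slc4a7 and Slc9a9, a sodium and proton exchanger of endosomes, were lower. Of 50 members tested, 5 were higher (10%) and 2 lower (4%), where 2.64% of 12557 protein-coding genes were higher and 4.01% lower. The remaining call was Slc24a3, a potassium-dependent sodium and calcium exchanger, which was higher from a low level. The median log2 fold change was 0.09 over the members and −0.00 over all protein-coding genes, and 29 of 50 members were above 0. No member had an adjusted p under 0.05 in edgeR's quasi-likelihood test, and 0% of protein-coding genes did. At an unadjusted p under 0.05 there were 10 of 50 members (20%) and 12.9% of protein-coding genes, and DESeq2 gave 5 of 50 members with an adjusted p under 0.05, Slc9a3, Slc4a7, Slc26a3, Slc26a2 and Slc34a2, and 111 of 12557 protein-coding genes. The same 5 were the DESeq2 calls at the genotype cutoffs, without Slc24a3 and Slc9a9, and DESeq2 called 168 protein-coding genes higher and 295 lower, against 331 and 503 with edgeR. The 7 calls became 3 without WT colon 2, 4 without DDX5KO colon 1 and 13 without DDX5KO colon 2, with Slc4a4, Slc4a8, Slc20a1 and Slc39a8 among those gained. These fits called 229, 264 and 557 of 13101 protein-coding genes higher and 376, 343 and 941 lower, so calls over all genes fell and rose too. Without WT colon 1, Slc24a3 and Slc9a3 lost their calls, Slc30a10 and Slc4a11 gained them, and fewer protein-coding genes were called than in the main fit. In bulk RNA, fewer cells that express a gene and less RNA in each cell cannot be told apart.

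The promoters of Slc9a3, Slc26a3, Slc34a2 and Slc4a7 are shown because these members passed the genotype cutoffs in the main edgeR fit and are carriers of salt, phosphate or bicarbonate. Each runs 5′ to 3′ from 250 bases before to 50 bases after a RefSeq transcription start in GRCm38.p6, and all 4 lie on the plus strand. The places are chr13:74121163-74121462 for Slc9a3, chr12:31437969-31438268 for Slc26a3, chr5:53049103-53049402 for Slc34a2 and chr14:14718534-14718833 for Slc4a7. The windows of Slc26a3, Slc34a2 and Slc4a7 lie inside the annotated spans of their genes, which begin further upstream. The starts used for these genes are thus internal ones. Capitals mark matches to the core of the metal response element, TGCACNC or TGCGCNC on either strand, and to the TATA sequence TATAAA on either strand. Matches on opposite strands may overlap each other.
Slc9a3: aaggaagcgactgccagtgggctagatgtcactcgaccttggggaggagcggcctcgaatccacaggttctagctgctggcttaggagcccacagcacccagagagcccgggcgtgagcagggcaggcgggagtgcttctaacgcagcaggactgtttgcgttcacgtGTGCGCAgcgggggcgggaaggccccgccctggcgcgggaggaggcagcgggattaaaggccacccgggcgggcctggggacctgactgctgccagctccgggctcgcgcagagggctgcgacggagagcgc
Slc26a3: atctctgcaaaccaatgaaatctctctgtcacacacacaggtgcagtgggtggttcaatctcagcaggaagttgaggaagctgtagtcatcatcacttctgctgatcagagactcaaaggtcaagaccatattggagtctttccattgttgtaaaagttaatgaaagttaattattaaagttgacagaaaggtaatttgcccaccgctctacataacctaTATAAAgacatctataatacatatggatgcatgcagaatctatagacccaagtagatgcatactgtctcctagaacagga
Slc34a2: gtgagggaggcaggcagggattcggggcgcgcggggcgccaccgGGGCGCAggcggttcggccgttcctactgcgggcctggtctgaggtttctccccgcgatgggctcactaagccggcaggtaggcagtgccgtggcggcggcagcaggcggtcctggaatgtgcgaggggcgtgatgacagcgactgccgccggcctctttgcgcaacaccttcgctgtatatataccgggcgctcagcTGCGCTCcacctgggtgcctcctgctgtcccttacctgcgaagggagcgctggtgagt
Slc4a7: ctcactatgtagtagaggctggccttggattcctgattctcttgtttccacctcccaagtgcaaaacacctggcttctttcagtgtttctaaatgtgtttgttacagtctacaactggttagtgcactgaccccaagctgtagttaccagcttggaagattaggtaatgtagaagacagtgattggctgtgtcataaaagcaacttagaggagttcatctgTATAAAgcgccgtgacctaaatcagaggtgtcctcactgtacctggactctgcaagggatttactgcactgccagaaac
Slc9a3 has 1 metal response core and Slc34a2 has 2, while Slc26a3 and Slc4a7 have TATAAA at −30 and −29 from the start. Of 32851 promoters of this length in the table, 25.7% hold a metal response core, 7.11% hold 2 or more, and 13.6% hold TATAAA. Among 76 promoters of 59 members in the table, 29 hold a core and 15 hold TATAAA. A match is a description of letters, not a site in use or a cause.

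Among sodium and proton exchangers, most RNA per kilobase in the colon was of Slc9a2 and Slc9a3, both apical. Slc9a3 (ENSMUSG00000036123.8, chr13:74121457-74169442 in GRCm38) was at 202 and 170 CPM in WT colon and 332 and 331 CPM in DDX5KO colon. Both DDX5KO libraries lay above both WT libraries, and the gap between genotypes was wider than the gap between mice of a genotype. The log2 fold change was 0.83 (standard error, SE, 0.10, edgeR adjusted p = 0.166). Over the alternatives its adjusted p ran from 1.4e-05 with DESeq2 to 1. The call held with all 8 libraries in one fit without the block. Without WT colon 1, WT colon 2, DDX5KO colon 1 or DDX5KO colon 2, the log2 fold changes were 0.97, 0.71, 0.83 and 0.83. The call was lost in these fits of the other 7 libraries, which had no block and also draw on the spread in the ileum. Slc9a2 was at 279 and 260 CPM in WT and 295 and 300 CPM in DDX5KO colon, a log2 fold change of 0.13 (adjusted p = 0.588). Per kilobase, Slc9a3 had 0.919 and 0.829 times the counts of Slc9a2 in WT colon and 1.43 and 1.40 times in DDX5KO colon. So the order of these apical exchangers differed between the genotypes in all 4 colon libraries. Slc9a8, an exchanger of the Golgi, was at 45.3 and 39.4 CPM in WT and 47.0 and 45.03 CPM in DDX5KO colon, and the genotypes overlapped. Slc9a9 (ENSMUSG00000031129.9, chr9:94669909-95230445) was at 3.57 and 2.86 CPM in WT and 1.60 and 1.23 CPM in DDX5KO colon. These are low levels without overlap, with a log2 fold change of −1.19 (SE 0.26, adjusted p = 0.276). The call of Slc9a9 was lost with DESeq2 at a log2 fold change of −1.20, and its adjusted p ran from 0.261 to 1 over the alternatives.

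Slc26a3 (ENSMUSG00000001225.12, chr12:31390871-31473917) was at 669 and 596 CPM in WT colon and 1310.2 and 815 CPM in DDX5KO colon. Slc26a2 (ENSMUSG00000034320.14), on the same scale, was at 1037 and 899.6 CPM in WT and 1919 and 1223 CPM in DDX5KO colon. For both genes the DDX5KO libraries lay above the WT libraries, and DDX5KO colon 1 was the highest. The log2 fold change was 0.70 for Slc26a3 (SE 0.15, adjusted p = 0.274) and 0.66 for Slc26a2 (SE 0.14, adjusted p = 0.272). Their adjusted p over the alternatives ran from 0.0025 to 1 and from 0.0037 to 1. Leaving out DDX5KO colon 1 ended these calls at smaller fold changes, and leaving out WT colon 2 ended them at similar fold changes. Without DDX5KO colon 1 the log2 fold changes were 0.37 for Slc26a3 and 0.34 for Slc26a2, and without WT colon 2 they were 0.67 and 0.60, and neither gene was called. Without DDX5KO colon 2 they were 1.05 and 0.99. Slc26a6, the other apical anion exchanger, was barely expressed in the colon, at 2.00, 1.67, 2.21 and 2.10 CPM over the 4 libraries. Per kilobase, Slc26a3 had 285 and 303 times the counts of Slc26a6 in WT colon and 504 and 330 times in DDX5KO colon, from 38 to 46 counts of Slc26a6.

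Among bicarbonate carriers, Slc4a7 (ENSMUSG00000021733.10, chr14:14702279-14799940), an electroneutral sodium and bicarbonate cotransporter, was at 305 and 293 CPM in WT colon and 168 and 201 CPM in DDX5KO colon. The genotypes did not overlap. Its log2 fold change in the colon was −0.71 (SE 0.11, edgeR adjusted p = 0.226), and the adjusted p ran from 0.00092 to 1 over the alternatives. The call held in each of 11 refits, 4 with a library left out, with log2 fold changes from −0.83 to −0.57. Slc4a4, the electrogenic sodium and bicarbonate cotransporter of the basolateral membrane, was at 153 and 184 CPM in WT and 247 and 184 CPM in DDX5KO colon (log2 fold change 0.33, adjusted p = 0.519). Per kilobase, Slc4a4 had 0.705 and 0.881 times the counts of Slc4a7 in WT colon and 2.06 and 1.28 times in DDX5KO colon. Between Slc4a4 and Slc4a7, the carrier with more RNA per length was thus Slc4a7 in WT colon and Slc4a4 in DDX5KO colon. Slc4a2, a chloride and bicarbonate exchanger of the basolateral side, was at 217 and 235 CPM in WT and 176 and 246 CPM in DDX5KO colon, and the genotypes overlapped. Per kilobase, Slc4a2 ranked first among Slc4 members in both WT colon libraries and in DDX5KO colon 2, and Slc4a4 did in DDX5KO colon 1. Slc4a1, the exchanger of red cells, had at most 5 counts in any of the 8 libraries.

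Slc34a2 (ENSMUSG00000029188.14, chr5:53038081-53071664), low in the colon, was at 18.0 and 27.5 CPM in WT and 39.4 and 47.9 CPM in DDX5KO colon. All DDX5KO values lay above the WT values. The log2 fold change was 0.95 (SE 0.12, edgeR adjusted p = 0.176), and the adjusted p ran from 0.0053 to 1 over the alternatives. The call held without each colon library in turn, with log2 fold changes from 0.67 to 1.28. Slc20a1 was at 389 and 268 CPM in WT and 596 and 270 CPM in DDX5KO colon, where the replicates of each genotype differed more than the genotypes did (log2 fold change 0.31, adjusted p = 0.518). Slc20a2, its widely expressed relative, was at 18.1 and 16.8 CPM in WT and 23.3 and 19.7 CPM in DDX5KO colon (log2 fold change 0.29, adjusted p = 0.419). Per kilobase, Slc20a1 had 19.4 and 8.75 times the counts of Slc34a2 in WT colon and 13.6 and 5.07 times in DDX5KO colon.

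Slc24a3 (ENSMUSG00000063873.10, chr2:145167754-145642166) was at 3.26 and 2.55 CPM in WT and 4.97 and 4.15 CPM in DDX5KO colon. The genotypes did not overlap, and the log2 fold change was 0.64 (SE 0.22, edgeR adjusted p = 0.378). Of the 11 alternatives, 4 ended this call: DESeq2 (log2 fold change 0.64) and the fits without WT colon 1, WT colon 2 or DDX5KO colon 1 (0.83, 0.48 and 0.52). Slc24a3 was the single Slc24 member tested, and Slc24a5, known for its role in pigment cells, had at most 2 counts in any library and was not tested. Slc12a2 was at 629 and 583 CPM in WT colon and 467 and 557 CPM in DDX5KO colon, with a log2 fold change of −0.26 that did not pass (adjusted p = 0.468). Slc12a7, a potassium and chloride cotransporter, was at 106 and 112 CPM in WT and 123 and 122 CPM in DDX5KO colon (log2 fold change 0.16, adjusted p = 0.503). No Slc12, Slc20, Slc30 or Slc39 member was called in the colon, out of 6, 2, 7 and 13 tested, and the log2 fold changes of these families ran from −0.94 for Slc30a10 to 1.03 for Slc12a4.

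In the colon the genotypes did not overlap in 7 of 20 zinc transporter members tested (35%), where they did not in 45.3% of 12557 protein-coding genes. Slc39a4 was at 160 and 174 CPM in WT and 168 and 207 CPM in DDX5KO colon, Slc39a5 at 60.6 and 60.9 against 62.2 and 56.01 CPM, and Slc39a8 at 38.6 and 38.2 against 26.7 and 40.7 CPM. Slc39a14, a zinc importer that also carries manganese, was at 45.1 and 53.8 against 38.5 and 47.5 CPM, and Slc30a1 at 53.7 and 59.4 against 62.6 and 55.2 CPM. The genotypes overlapped in these 5 genes. Slc30a10, an exporter of manganese, was at 26.5 and 44.0 CPM in WT and 25.2 and 12.6 CPM in DDX5KO colon, with no overlap and a log2 fold change of −0.94 that was not called (adjusted p = 0.457). In 3 of 11 alternatives it was called, namely no replicate block (−0.92) and the fits without WT colon 1 (−1.22) or DDX5KO colon 1 (−1.48), while without WT colon 2 or DDX5KO colon 2 it was at −0.49. Slc39a6, picked after its values were seen, was at 3.10 and 3.17 against 2.04 and 2.10 CPM, also without overlap and not called (log2 fold change −0.61, adjusted p = 0.430), but it was called with no replicate block, with no filter on low counts and with all 8 libraries in one fit. Between genotypes Slc30a2 was tested in the ileum alone, where it was at 32.9 and 28.0 against 35.9 and 30.0 CPM.

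**Figure D2:**
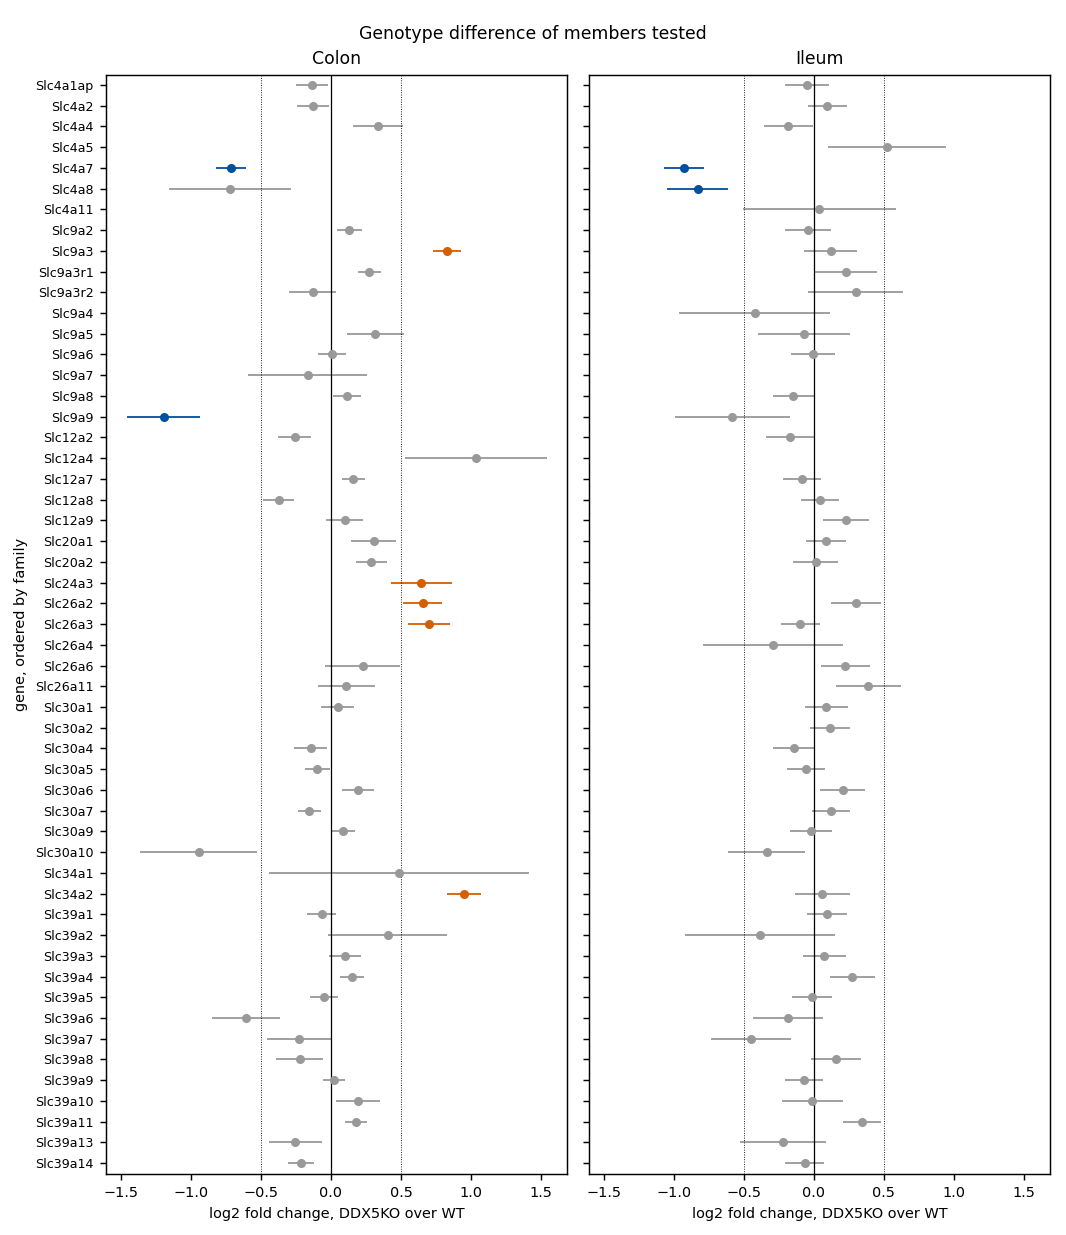
Log2 fold change of DDX5KO against WT in the colon and in the ileum for members tested, with bars for the standard error, dotted lines at 0.5 in either direction and colored points for members called in the main edgeR fit. In the colon 5 called members lie to the right and 2 to the left, and in the ileum 2 lie to the left.

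In DDX5KO ileum the same comparison gave lower RNA of the bicarbonate carriers Slc4a7 and Slc4a8, and the salt exchangers called in the colon were not called. Slc4a7 was at 110 and 141 CPM in WT ileum and 64.3 and 66.1 CPM in DDX5KO ileum, without overlap. Slc4a8 (ENSMUSG00000023032.12, chr15:100761747-100823968), a sodium-driven chloride and bicarbonate exchanger, was at 8.17 and 11.2 CPM in WT and 3.94 and 7.17 CPM in DDX5KO ileum. These values did not overlap either, although the DDX5KO mice were far apart. Of 51 members tested, 2 were lower (3.92%) and 0 were higher, where 2.83% of 12064 protein-coding genes were lower and 3.78% higher. At an unadjusted p under 0.05 in edgeR's quasi-likelihood test there were 3 of 51 members (5.88%) and 12.2% of protein-coding genes, the third member being the zinc transporter Slc39a11, and DESeq2 also gave 2 members lower and 0 higher, with 156 protein-coding genes lower and 206 higher against 341 and 456 with edgeR. The 2 calls became 5 without DDX5KO ileum 2 and 1 without DDX5KO ileum 1, in fits that called 587 and 337 of 13101 protein-coding genes lower and 682 and 478 higher. The median log2 fold change was −0.01 over the members and 0.00 over all protein-coding genes.

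The log2 fold change of Slc4a7 in the ileum was −0.93 (SE 0.15, edgeR adjusted p = 0.0245). It was the 1 member of 51 with an adjusted p under 0.05, where 0.705% of protein-coding genes had one. That adjusted p ran from 1.8e-05 to 0.598 over the alternatives. It was 0.305 without the replicate block, 0.101 with all 8 libraries in one fit, 0.0563 without the repeat-like genes, 0.361 without WT ileum 1, 0.598 without WT ileum 2, 0.281 without DDX5KO ileum 1 and 0.125 without DDX5KO ileum 2. The call at the genotype cutoffs held in each of 11 refits, with log2 fold changes from −1.11 to −0.75. For Slc4a8 the log2 fold change came to −0.83 (SE 0.22, adjusted p = 0.141), and over the alternatives the adjusted p ran from 0.0082 to 1.00. Its call was lost with all 8 libraries in one fit (log2 fold change −0.80) and without WT ileum 1, WT ileum 2 or DDX5KO ileum 1, where the log2 fold changes were −1.02, −0.56 and −0.42. Without DDX5KO ileum 2 it was −1.27. In the colon Slc4a8 was at 1.52 and 1.36 CPM in WT and 0.55 and 1.23 CPM in DDX5KO mice, and the log2 fold change of −0.72 was not called (adjusted p = 0.559).

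No Slc9, Slc12, Slc20, Slc26 or Slc34 member was called in the ileum. Slc9a3 was at 61.1 and 151 CPM in WT ileum and 89.6 and 122 CPM in DDX5KO ileum, so the WT mice enclosed the DDX5KO mice. Its log2 fold change was 0.12 (adjusted p = 0.866) and turned to −0.52 without WT ileum 1 and to 0.79 without WT ileum 2, and was called in both of these fits. Slc26a3 was at 144 and 133 against 147 and 113 CPM, Slc26a2 at 452 and 446 against 607 and 501 CPM, and Slc26a6 at 301 and 348 against 415 and 343 CPM. Slc34a2 was at 473 and 502 CPM in WT and 604 and 425 CPM in DDX5KO ileum, and Slc12a2 at 472 and 457 against 370 and 460 CPM. Only Slc26a2 of these 5 genes had both DDX5KO libraries above both WT libraries (log2 fold change 0.30, adjusted p = 0.545). Slc9a3r1, the scaffold NHERF1, was at 551 and 465 CPM in WT ileum and 867 and 405 CPM in DDX5KO ileum. The DDX5KO mice were further apart than the group means, which were 508 CPM in WT and 636 CPM in DDX5KO ileum. Slc9a3r1 had a log2 fold change of 0.23 there, not called, and from −0.32 to 0.79 with 1 library left out. It was called without DDX5KO ileum 2. In the colon it was at 134 and 126 against 169 and 148 CPM (log2 fold change 0.27, adjusted p = 0.339).

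**Figure D3:**
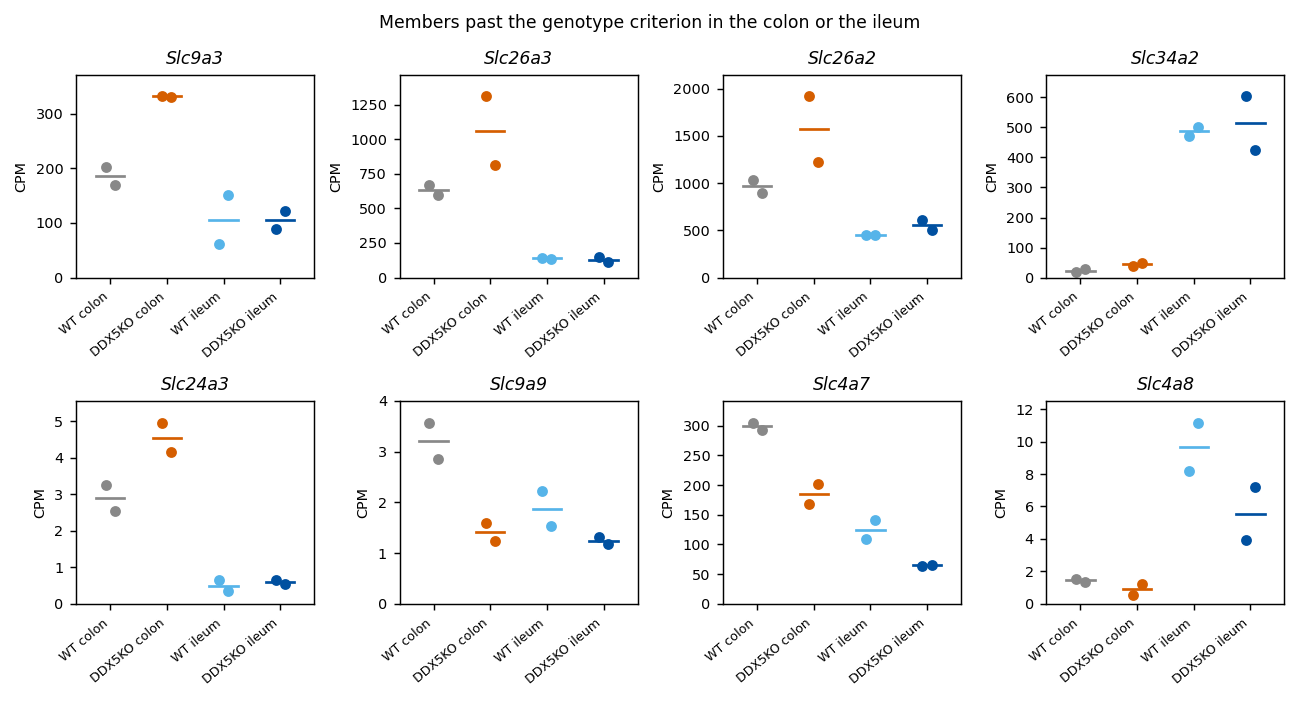
RNA level (CPM) in each library of the members called in a comparison of genotypes, 1 panel per gene, with 1 point per mouse colored by group and lines at the group means. Slc4a7 is lower in the DDX5KO mice in both tissues, at 168 and 201 against 305 and 293 CPM in the colon and 64.3 and 66.1 against 110 and 141 CPM in the ileum.

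Whether the effect of genotype differs between the tissues was tested directly as an interaction in a fit of all 8 libraries with the mouse (genotype with replicate number) as a block. If the number marks a mouse, the genotype comparisons of the tissues come from the same mice and are not independent. With the mouse as a block, leaving out 1 library also takes the other library of that mouse out of the tissue difference. Fits without the colon or without the ileum library of a mouse are thus nearly the same check, for the interaction and between tissues. Of 55 members, 0 had an adjusted p under 0.05 in edgeR's quasi-likelihood test, where 0.00763% of 13101 protein-coding genes had one. At an unadjusted p under 0.05 there were 4 of 55 members (7.27%) and 6.89% of protein-coding genes. These 4, picked after the values were seen, were Slc26a3, with an interaction of −0.81 (log2, ileum minus colon, adjusted p = 0.572), Slc30a10 with 0.58 (adjusted p = 0.664), Slc34a2 with −0.91 (adjusted p = 0.750) and Slc4a4 with −0.53 (adjusted p = 0.753). DESeq2 gave 1 member, Slc26a3 (adjusted p = 0.0323), and the fit with no filter on low counts gave 3, Slc26a3, Slc34a2 and Slc9a3, where 36 of 13101 and 296 of 20229 protein-coding genes passed, against 1 in the main fit. The adjusted p of Slc26a3 ran from 0.0205 to 1 over the alternatives and was under 0.05 with DESeq2 and with no filter. Its interaction was −0.95 without DDX5KO colon 2 and −0.94 without DDX5KO ileum 2. These fits take the same mouse out of the interaction and are 1 check. Slc4a7, lower in both tissues, had an interaction of −0.23 (adjusted p = 0.874).

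The comparison of tissues shows where along the gut each member is expressed. In WT mice the largest differences were in Slc26a6, the apical anion exchanger, and Slc30a2, a zinc transporter of secretory vesicles, both close to 0 in the colon. Slc34a2 and the bicarbonate carriers Slc4a4, Slc4a5 and Slc4a8 were also higher in the ileum, while Slc26a3, Slc20a1, Slc26a2 and Slc4a7 were higher in the colon. Of 55 members tested, 10 were higher in WT ileum (18.2%) and 8 in WT colon (14.5%), where 10% of 13101 protein-coding genes were higher in the ileum and 9.98% in the colon. In DDX5KO mice 11 members were higher in the ileum (20%) and 9 in the colon (16.4%), where 11.4% and 9.24% of protein-coding genes were. The median absolute log2 difference was 0.83 over the members and 0.40 over all protein-coding genes in WT, and 0.64 and 0.43 in DDX5KO mice. The WT and the DDX5KO comparison come from one fit and share its estimate of the spread.

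Slc26a6 (ENSMUSG00000023259.16, chr9:108853283-108913049) was at 2.00 and 1.67 CPM in WT colon and 301 and 348 CPM in WT ileum. In DDX5KO mice it was at 2.21 and 2.10 CPM in the colon and 415 and 343 CPM in the ileum. The tissues were far apart in all 8 libraries, with a log2 difference of 7.47 in WT (SE 0.17, adjusted p = 3.7e-06) and 7.45 in DDX5KO mice (SE 0.17, adjusted p = 3.8e-06). From 11547 counts in WT ileum and 76 in WT colon, the ratio was 176, with a 95% counting interval of 140 to 223. Its relative Slc26a3 had the opposite order, with log2 differences of −2.19 in WT (adjusted p = 5.2e-05) and −3.00 in DDX5KO mice (adjusted p = 1.8e-05). Per kilobase, Slc26a6 had 2.47 and 3.09 times the counts of Slc26a3 in WT ileum and 3.32 and 3.57 times in DDX5KO ileum. The leading anion exchanger was thus Slc26a3 in all 4 colon libraries and Slc26a6 in all 4 ileum libraries. Slc26a2 was higher in the colon by 1.10 in WT (adjusted p = 0.00176) and 1.47 in DDX5KO mice (adjusted p = 0.000538). Slc26a4, the anion exchanger pendrin, rested on 37 counts in WT ileum and 9 in WT colon, a ratio of 4.76 with a counting interval of 2.26 to 11.2, and in DDX5KO mice it was not called.

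Phosphate carriers also changed places along the gut. Slc34a2 rose from 18.0 and 27.5 CPM in WT colon to 473 and 502 CPM in WT ileum, a log2 difference of 4.45 (SE 0.24, edgeR adjusted p = 2.9e-05). Slc20a1 (ENSMUSG00000027397.14, chr2:129198764-129211616) went the other way, from 389 and 268 CPM in WT colon to 52.9 and 55.1 CPM in WT ileum, a log2 difference of −2.58 (SE 0.23, adjusted p = 0.000272). Neither gene had overlapping tissues. Per kilobase, Slc34a2 had 9.94 and 10.1 times the counts of Slc20a1 in WT ileum and 10.7 and 9.15 times in DDX5KO ileum. The log2 differences in DDX5KO mice were 3.54 for Slc34a2 (adjusted p = 6.5e-05) and −2.82 for Slc20a1 (adjusted p = 0.000206).

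Bicarbonate carriers of the Slc4 family were split between the tissues. Slc4a4 was at 153 and 184 CPM in WT colon and 499 and 528 CPM in WT ileum, a log2 difference of 1.61 (adjusted p = 0.000257), and Slc4a8 differed by 2.73 (adjusted p = 0.000234). Slc4a5, an electrogenic bicarbonate cotransporter at low level, had 48 counts in WT ileum and 7 in WT colon, a ratio of 7.94 with a counting interval of 3.57 to 20.8. Slc4a7 was higher in the colon, with log2 differences of −1.27 in WT (adjusted p = 0.000497) and −1.499 in DDX5KO mice (adjusted p = 0.000276). Every WT colon library was above every WT ileum library for Slc4a7. Among sodium and proton exchangers, Slc9a3 passed in DDX5KO mice (log2 difference −1.67, adjusted p = 0.00803) and not in WT mice (−0.94, adjusted p = 0.0663), and the interaction of −0.72 did not separate these (adjusted p = 0.852). The WT value of Slc9a3 was −1.72 and called without WT colon 2 or WT ileum 2, and −0.17 without WT colon 1 or WT ileum 1. The scaffold Slc9a3r1 was higher in the ileum, by 1.96 in WT and 1.90 in DDX5KO mice, and the scaffold Slc9a3r2 was higher in the colon, by 2.04 and 1.63. Slc24a3 was higher in the colon by 2.51 in WT and 2.92 in DDX5KO mice, from a level of 3.26 CPM or less in WT.

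**Figure D4:**
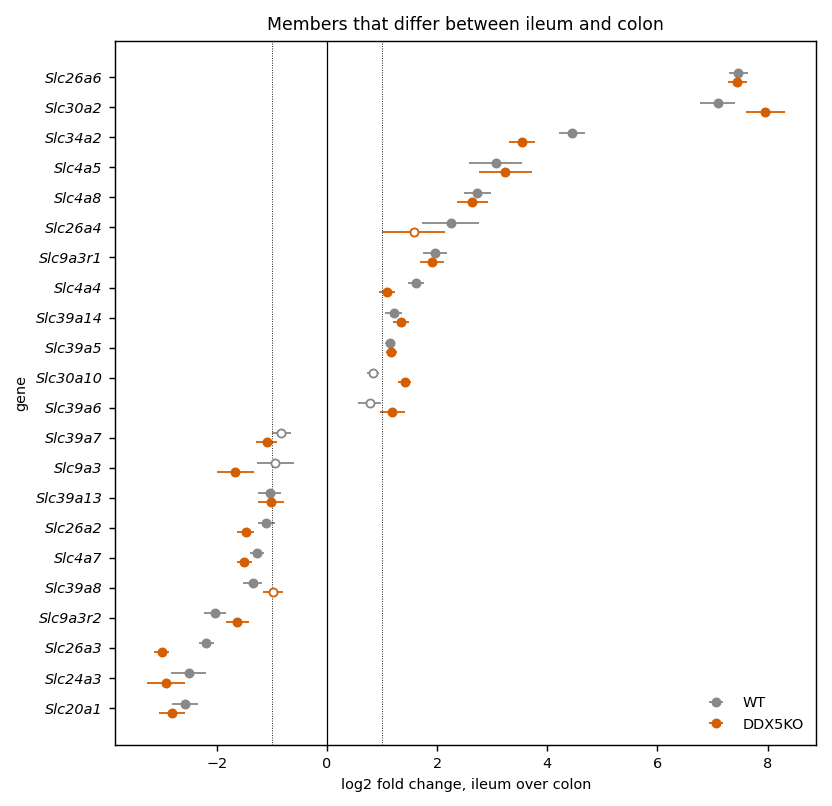
Log2 difference between ileum and colon for the members called in WT or DDX5KO mice, with points colored by genotype, open where not called, and bars for the standard error. Values right of 0 are higher in the ileum, up to 7.95 for Slc30a2 in DDX5KO mice, and values left of 0 higher in the colon, down to −3.00 for Slc26a3 in DDX5KO mice.

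Zinc carriers made up 24 of the 76 members. Slc30a2 (ENSMUSG00000028836.14, chr4:134343181-134354484), which Paneth cells use to fill granules with zinc, was at 0.11 and 0.31 CPM in WT colon and 32.9 and 28.0 CPM in WT ileum. The log2 differences were 7.09 in WT (adjusted p = 1.5e-05) and 7.95 in DDX5KO mice. It had 1117 counts in WT ileum and 9 in WT colon, a ratio of 144 with a 95% counting interval of 75.4 to 315, and 663 counts in DDX5KO ileum against 5 in DDX5KO colon, a ratio of 265 with an interval of 113 to 820. The importers Slc39a5 and Slc39a14 were also higher in the ileum, by 1.14 (adjusted p = 0.00019) and 1.21 (adjusted p = 0.00104) in WT, and by 1.17 and 1.34 in DDX5KO mice. Slc39a5 was at 132 and 136 CPM, Slc39a14 at 115 and 114 CPM and Slc39a8, an importer of zinc and manganese, at 17.8 and 12.5 CPM in WT ileum. Slc39a8 was higher in WT colon (log2 difference −1.35, adjusted p = 0.00127) and fell just short of the fold threshold in DDX5KO mice (−0.98). Per kilobase, Slc39a14 had 0.850 and 1.02 times the counts of Slc39a8 in WT colon and 4.67 and 6.60 times in WT ileum. Slc39a4 was at 160 and 174 CPM in WT colon and 272 and 213 CPM in WT ileum and was not called (log2 difference 0.53, adjusted p = 0.128). Slc30a1, the exporter of the basolateral membrane, was at 53.7 and 59.4 CPM in WT colon and 115 and 95.7 CPM in WT ileum, a log2 difference of 0.89, under the threshold of 1. Slc30a10 was at 26.5 and 44.0 CPM in WT colon and 51.7 and 71.3 CPM in WT ileum (log2 difference 0.83), and was called in DDX5KO mice (1.41, adjusted p = 0.000179). Slc39a6 and Slc39a7 were called in DDX5KO mice alone as well, at 1.19 and −1.09, against 0.77 and −0.83 in WT, and their interactions did not pass (adjusted p = 0.861 and 0.893). Slc39a13, a zinc transporter of the Golgi, was higher in the colon by 1.04 in WT and 1.02 in DDX5KO mice.

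Some of these tissue calls were lost in fits with 1 library left out. Leaving out the colon or the ileum library of a mouse is nearly the same check, so these losses amount to 1 check per mouse. Each fit without a WT library also called fewer protein-coding genes between WT tissues than the main fit. In WT mice Slc26a2, Slc26a4 and Slc39a13 lost their calls without any 1 of the 4 WT libraries, and Slc4a5 lost its call without WT colon 2 or WT ileum 2. In DDX5KO mice Slc39a13 and Slc4a4 lost theirs without DDX5KO colon 2 or DDX5KO ileum 2. Over the fits with 1 library left out, the log2 differences in WT mice ran from −1.19 to −1.01 for Slc26a2, from 1.71 to 2.78 for Slc26a4, from −1.20 to −0.90 for Slc39a13 and from 2.99 to 3.19 for Slc4a5, and the adjusted p of these 4 reached 0.0800, 0.231, 0.152 and 0.0740. In DDX5KO mice they ran from −1.27 to −0.77 for Slc39a13 and from 0.87 to 1.31 for Slc4a4. The WT call of Slc26a4 was also lost with DESeq2, and the DDX5KO call of Slc39a13 with DESeq2, with RLE normalization and in the fit of the DDX5KO libraries alone.

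The metallothionein genes Mt1 and Mt2 passed the genotype cutoffs in the main fits, calls that were lost in fits with 1 library left out. The promoters of Slc30a1, Slc30a2, Mt1 and Mt2 are shown for these calls and because metal response elements are known from zinc balance genes. All 4 are on the plus strand of GRCm38.p6, taken 5′ to 3′ from RefSeq as before, at chr1:191906531-191906830 for Slc30a1, chr4:134343216-134343515 for Slc30a2, chr8:94178839-94179138 for Mt1 and chr8:94172368-94172667 for Mt2. Capitals mark the cores TGCACNC and TGCGCNC on either strand.
Slc30a1: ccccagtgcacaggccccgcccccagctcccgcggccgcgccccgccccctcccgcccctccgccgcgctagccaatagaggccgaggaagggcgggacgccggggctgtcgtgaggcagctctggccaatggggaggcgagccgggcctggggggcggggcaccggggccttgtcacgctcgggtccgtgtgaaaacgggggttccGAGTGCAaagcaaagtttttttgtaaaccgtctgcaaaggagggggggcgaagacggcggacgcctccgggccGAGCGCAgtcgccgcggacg
Slc30a2: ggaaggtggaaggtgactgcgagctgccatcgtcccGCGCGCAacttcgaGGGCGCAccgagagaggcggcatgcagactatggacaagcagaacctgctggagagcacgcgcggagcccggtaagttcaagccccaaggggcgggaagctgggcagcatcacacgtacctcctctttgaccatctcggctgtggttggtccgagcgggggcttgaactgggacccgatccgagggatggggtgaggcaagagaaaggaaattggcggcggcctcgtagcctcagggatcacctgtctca
Mt1: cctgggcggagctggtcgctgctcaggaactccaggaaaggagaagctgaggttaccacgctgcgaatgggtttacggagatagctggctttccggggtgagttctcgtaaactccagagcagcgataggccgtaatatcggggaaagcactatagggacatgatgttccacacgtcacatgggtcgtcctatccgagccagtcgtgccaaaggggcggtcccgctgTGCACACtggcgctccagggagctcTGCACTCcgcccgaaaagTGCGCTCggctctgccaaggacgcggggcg
Mt2: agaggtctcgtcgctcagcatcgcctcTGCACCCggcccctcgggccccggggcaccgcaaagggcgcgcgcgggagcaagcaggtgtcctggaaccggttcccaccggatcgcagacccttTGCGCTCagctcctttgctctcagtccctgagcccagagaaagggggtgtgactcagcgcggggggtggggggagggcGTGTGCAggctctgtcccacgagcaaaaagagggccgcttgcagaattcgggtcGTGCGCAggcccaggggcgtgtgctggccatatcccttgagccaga
Slc30a1 and Slc30a2 have 2 cores each, Mt1 has 3 and Mt2 has 4. The Slc30a2 window lies inside the annotated span of the gene, which begins at chr4:134343181, so both of its cores are within that span. Of 25 promoters of zinc transporter members in the table, 12 hold a core and 4 hold 2 or more, and of 51 promoters of the other members 17 hold a core, next to 25.7% and 7.11% of all promoters. A match describes letters and is not evidence of a factor at work.

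The zinc partner list holds 6 genes, the metallothioneins Mt1 to Mt4, which bind zinc in the cytosol, the metal-sensing transcription factor Mtf1 and the zinc transporter Tmem163. Of 5 tested, 3 were lower in DDX5KO colon and 0 higher, and 2 were lower in DDX5KO ileum and 0 higher. Of protein-coding genes, 4.01% were lower and 2.64% higher in the colon, and 2.83% and 3.78% in the ileum. The list medians were −0.60 and −0.30. Mt1 was at 247 and 232 CPM in WT colon and 182 and 118 CPM in DDX5KO colon, and at 429 and 362 against 324 and 141 CPM in the ileum. Mt2 was at 21.5 and 24.3 against 19.3 and 11.9 CPM in the colon and at 38.4 and 38.2 against 37.0 and 16.7 CPM in the ileum. Both genes were lowest in replicate 2 of the DDX5KO mice in each tissue. The log2 fold changes of Mt1 were −0.72 in the colon (adjusted p = 0.268) and −0.88 in the ileum (adjusted p = 0.116), and those of Mt2 −0.60 (adjusted p = 0.413) and −0.59 (adjusted p = 0.325). Without DDX5KO colon 2 the colon values were −0.40 for Mt1 and −0.25 for Mt2, without DDX5KO ileum 2 the ileum values were −0.27 and −0.03, and these calls were lost. They were also lost without either WT library of the tissue, at −0.63 and −0.72 for Mt1 in the colon and −0.64 and −0.88 in the ileum, and at −0.64 and −0.46, then −0.50 and −0.51, for Mt2. With all 8 libraries in one fit, which also ended these calls, Mt1 was at −0.68 and −0.76 and Mt2 at −0.56 and −0.51. The ileum calls were lost without the replicate block too, at −0.76 and −0.50. Mt3 was at 2.10 and 3.17 CPM in WT colon and 0.77 and 1.96 CPM in DDX5KO colon (log2 fold change −1.01, adjusted p = 0.351), and 6 of 11 alternatives ended that call, among them the fits without WT colon 1, WT colon 2 and DDX5KO colon 1, at −1.19, −0.60 and −0.43.

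The partner list for sodium, chloride and bicarbonate holds 34 channels, pumps, carbonic anhydrases, scaffolds and regulators. In DDX5KO colon 6 of 33 tested were higher and 2 lower, with a list median of 0.18. In DDX5KO ileum 2 of 30 were higher and 2 lower, with a median of 0.00. Over protein-coding genes 2.64% were higher and 4.01% lower in the colon, and 3.78% and 2.83% in the ileum. Atp12a, the colonic proton and potassium pump, was at 175 and 209 CPM in WT and 598 and 343 CPM in DDX5KO colon. The epithelial sodium channel subunits Scnn1b and Scnn1g were at 6.88 and 5.81 against 16.3 and 8.02 CPM and at 2.36 and 1.23 against 17.9 and 2.598 CPM. In these 3 genes DDX5KO colon 1 was the highest library. Their log2 fold changes were 1.23 (adjusted p = 0.272), 0.85 (adjusted p = 0.337) and 2.12 (adjusted p = 0.286), and without DDX5KO colon 1 they were 0.83, 0.34 and 0.54, with the Scnn1b and Scnn1g calls lost. Without WT colon 2 they were 1.42, 0.82 and 2.10, again without the Scnn1b and Scnn1g calls, and without WT colon 1 Scnn1b was at 1.06 and not called. Without DDX5KO colon 2, Scnn1b was at 1.36 and Scnn1g at 3.33. Aqp8, a water channel of surface colonocytes, was at 281 and 222 against 518 and 365 CPM, Car4, a membrane-bound carbonic anhydrase, at 245 and 237 against 443 and 318 CPM, and Chp2, a calcineurin-like cofactor of Slc9 exchangers, at 113 and 111 against 179 and 172 CPM. For each of these genes both DDX5KO libraries were above both WT libraries, and the log2 fold changes were 0.79, 0.63 and 0.63. Car4 was lost without DDX5KO colon 1 (0.40) and Aqp8 without WT colon 2 (0.66).

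The partners that were lower in DDX5KO colon were Kcnq1, a basolateral potassium channel, at 84.7 and 84.0 against 51.6 and 65.6 CPM, and Ahcyl1, the IRBIT protein that activates sodium and bicarbonate cotransporters, at 123 and 119 against 85.2 and 84.4 CPM. Ahcyl1 was also lower in DDX5KO ileum, at 121 and 146 against 77.3 and 90.2 CPM, with log2 fold changes of −0.52 in the colon (adjusted p = 0.232) and −0.67 in the ileum (adjusted p = 0.06). Neither tissue had overlapping genotypes. Without WT colon 1 the colon value of Ahcyl1 was −0.49, just under the criterion, and without DDX5KO colon 1 that of Kcnq1 was −0.36. In the ileum the other calls were Car1, a carbonic anhydrase found mainly in the colon, which was lower from 4.15 and 1.53 to 0.94 and 0.32 CPM, and Pdzk1 and Guca2b, which were higher. Pdzk1, a scaffold of apical transporters, was at 117 and 113 against 248 and 145 CPM, and Guca2b, which encodes uroguanylin, at 110 and 106 against 201 and 148 CPM. The log2 fold changes were 0.73 for Pdzk1 and 0.68 for Guca2b, and without DDX5KO ileum 1 they were 0.33 and 0.46, with both calls lost. Pdzk1 was also lost without WT ileum 1 (0.80) or WT ileum 2 (0.76), and Car1, at −2.16, without WT ileum 1 (−1.23) or DDX5KO ileum 2 (−1.63). Of the 7 phosphate partners, 5 were tested, with 0 called in the colon (edgeR, 0 of 5 at an unadjusted p under 0.05) and 1 higher in the ileum, Alpi, the intestinal alkaline phosphatase, at 221 and 243 against 449 and 257 CPM. The log2 fold change of Alpi, 0.56, lost its call without WT ileum 1, WT ileum 2, DDX5KO ileum 1 or DDX5KO ileum 2, at 0.54, 0.68, 0.15 and 0.97, and also with all 8 libraries in one fit (0.61) and without the replicate block (0.61).

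**Figure D5:**
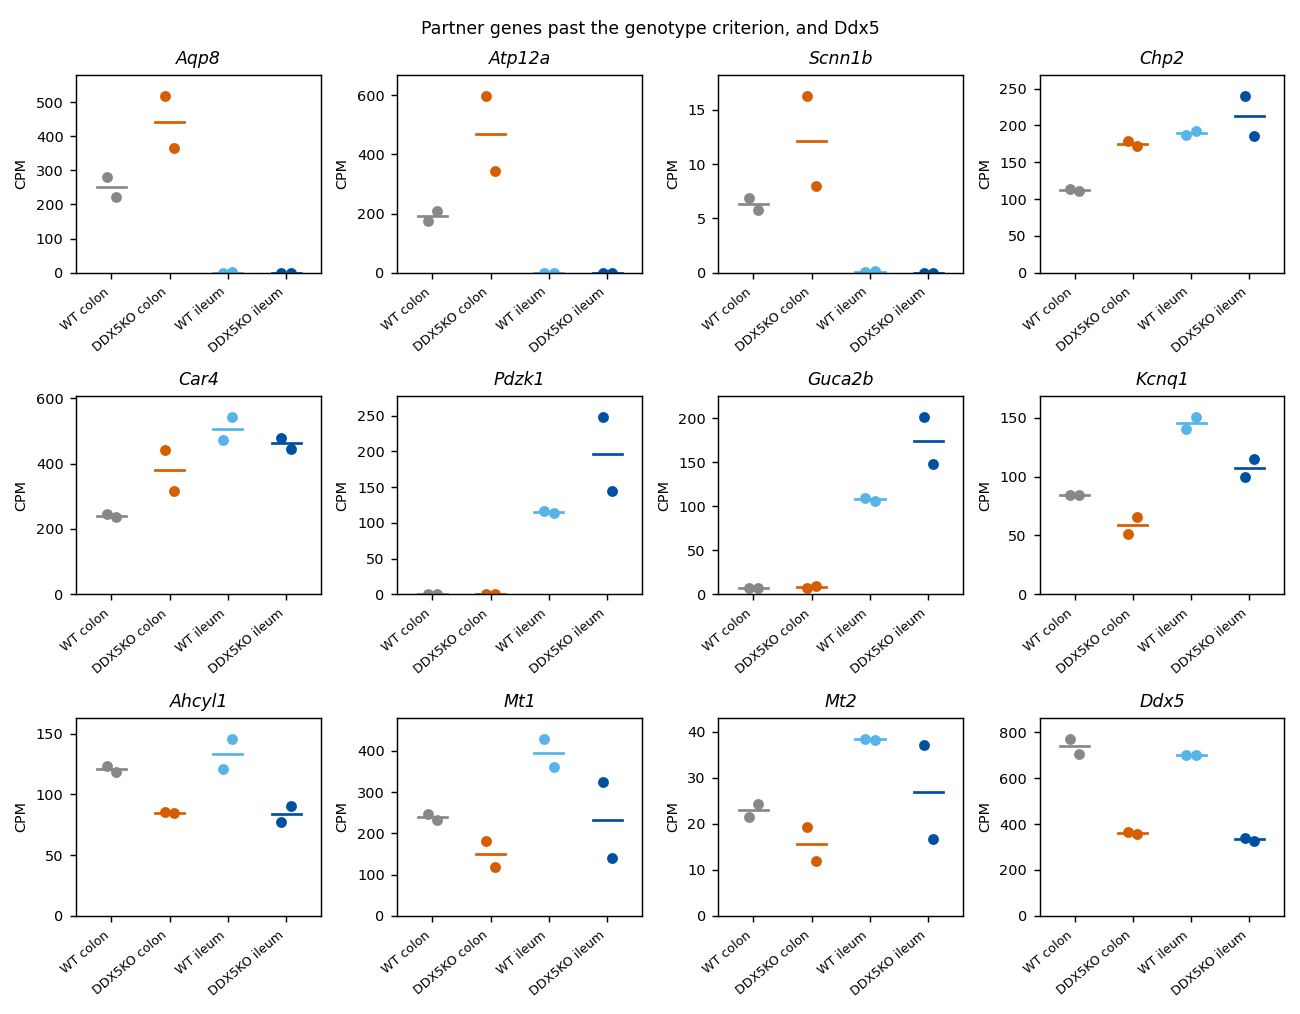
RNA level (CPM) in each library of 11 partner genes called in a tissue, and of Ddx5, with 1 point per mouse colored by group and lines at the group means. Atp12a reaches 598 CPM in DDX5KO colon 1 against 175 and 209 CPM in the WT mice, and Mt1 is lowest in replicate 2 of the DDX5KO mice in each tissue.

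Markers of other cell types were counted in the same fits. These fits called 2.64% of protein-coding genes higher and 4.01% lower in the colon, and 3.78% and 2.83% in the ileum. All 4 tuft cell markers tested were lower in DDX5KO colon and 5 of 5 in DDX5KO ileum, the list sum being 64.3 and 71.3 against 22.5 and 47.7 CPM in the colon and 314 and 471 against 204 and 259 CPM in the ileum, with Dclk1 giving the most counts to each sum, not corrected for length. Of 7 leukocyte markers tested, 4 were lower in DDX5KO colon and 1 in DDX5KO ileum, with list medians of −1.27 and 0.00. The list sum was 114 and 112 against 15.3 and 31.7 CPM in the colon. In the ileum it was 1009.8 and 488 against 817 and 272 CPM. Cd74 gave the most counts to each sum, not corrected for length. Cd74 alone was at 945 and 411 against 757 and 218 CPM in the ileum, so the ileum sums are largely this gene. The B cell marker Cd79a was at 0 in 3 of the 4 colon libraries. Among 6 goblet cell markers, Clca1 and Fcgbp were lower in DDX5KO colon, where the list sum was 45319 and 50375 against 26870 and 40235 CPM, and 2 were higher in DDX5KO ileum. The colonocyte list, with Car4 and Aqp8 higher, summed to 2932 and 3225 against 3192 and 4012 CPM in the colon, and Car1 gave the most counts to the sum in each colon library, not corrected for length. No marker of this list was at 0 in a colon library. In the ileum 1 of 3 colonocyte markers tested was lower. Of the ileal enterocyte markers, 1 of 4 was higher in DDX5KO colon and 1 of 6 lower in DDX5KO ileum, and of the Paneth markers 1 of 3 was lower in the colon and 0 of 6 called in the ileum, where edgeR gave 1 of the 6 an unadjusted p under 0.05. Enteroendocrine markers had 2 of 6 higher in each tissue. Stem and crypt markers had 0 of 6 called in either tissue, with 1 of 6 at an unadjusted p under 0.05 in the colon. Their sum was 519 and 551 against 382 and 540 CPM in the colon, lowest in DDX5KO colon 1, and 821 and 773 against 599 and 793 CPM in the ileum, with Mki67 giving the most counts to each sum, not corrected for length, and none of them at 0. Epithelial markers also had 0 of 6 called in either tissue, with 1 of 6 at an unadjusted p under 0.05 in the colon. Of stroma and muscle markers 1 of 4 was lower in the colon and 0 of 1 called in the ileum, of erythroid markers 0 of 6 and 0 of 1 were called (none at an unadjusted p under 0.05 in edgeR), and of enteric neuron and glia markers 0 of 2 and 1 of 1, Ret, which was higher. The summed stroma and muscle markers were at most 14.3 CPM in any library. The part that these cell types may have in the values of the transporters was not tested.

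The 21 members tested nowhere together summed to 1.10, 1.28, 1.21 and 1.60 CPM in the colon libraries and to 3.37, 2.57, 1.78 and 6.64 CPM in the ileum libraries. None of them had more than 14 counts in a library. Their RNA was too low at this depth for a comparison, which does not show that it is absent. Several tested members share sequence with other genes, and their counts are uncertain. Of 50-base words in their transcripts, 74.5% in Slc39a7 and 21.8% in Slc39a1 also occur in other genes. On the opposite strand, other genes cover 21.3% of the exon bases of Slc9a4, 16.0% of Slc30a7, 13.7% of Slc4a2, 13.1% of Slc20a1, 11.7% of Slc34a1, 9.13% of Slc30a10, 8.92% of Slc30a1 and 8.44% of Slc12a4. Whether counting kept the strands apart is not stated, so part of these counts may belong to the neighbors.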

How the data were processed

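The deposited tables hold raw counts of reads per gene for the colon and the ileum libraries, which the authors made, per the submitters' processing notes, with STAR 2.6.1a and featureCounts. Not used were the deposited normalized signal, which the authors made by dividing counts by a size factor, and the authors' comparison columns from DESeq2 1.18.1 (log2 fold change, test score, p-value). A gene listed in only 1 table was counted as 0 in the other. Tests were run in R 4.3.3 with edgeR 4.0.16 (TMM, quasi-likelihood, minimum count 10), with DESeq2 1.42.0 as an alternative. limma 3.58.1, Python 3.11.15, pandas 2.3.3 and matplotlib 3.10.9 did the rest. Alternatives were no replicate block, RLE normalization, other filters and thresholds, other libraries in the fit, no repeat-like genes, and each library left out. The code was tested on simulated data. Colon and ileum libraries of the same genotype and number were taken as one mouse, which the labels do not state. The genes named are fixed anchors, members past the thresholds, and partners from 3 lists, and cell types are read from marker lists. Members and lists were chosen with earlier results of these data known. Protein features were not analysed here.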

Additional observations from a re-analysis of the deposited data

How the results depend on the processing

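Over 184 named results, 2256 of 2464 alternative values kept direction and call, 104 were weaker, 27 stronger, 76 moved and 1 reversed: Slc9a3 in the ileum, at −0.52 without WT ileum 1 and 0.79 without WT ileum 2. In DDX5KO colon 7 members were called, with 3 to 13 over the left-out libraries, 4 without DDX5KO colon 1, and 1 with a log2 minimum of 1. At an adjusted p under 0.05 the count was 0, and 5 with DESeq2. In DDX5KO ileum the 2 calls became 1 with all 8 libraries in one fit, 0 with a log2 minimum of 1, and 1 to 5 over the left-out libraries. The 1 member with an adjusted p under 0.05 became 0 without the repeat-like genes, 0 in the fit of all 8 libraries and 0 without each ileum library, and 2 with no filter. Between tissues, 18 calls in WT became 29 with no fold minimum and 15 to 20 over the left-out libraries, and 20 calls in DDX5KO mice became 28 and 20 to 22. The interaction count of 0 became 1 with DESeq2, 3 with no filter and 0 to 1 over the left-out libraries. Of 13101 protein-coding genes, 2617 in WT and 2707 in DDX5KO mice were called between tissues, and 5544 and 5520 with no fold minimum. Over the left-out libraries, calls between tissues over all protein-coding genes fell and rose too. The cause of these moves was not tested.

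With no replicate block there were 9 calls in DDX5KO colon, 2 in DDX5KO ileum with 0 at an adjusted p under 0.05, 19 between WT tissues, 22 between DDX5KO tissues and 0 interactions. These fits called 490 of 12557 protein-coding genes lower and 334 higher in the colon. In the ileum they called 256 of 12064 lower and 355 higher, with 1 at an adjusted p under 0.05. Of 13101, 1282 were higher in the colon and 1284 in the ileum in WT mice, 1216 and 1450 in DDX5KO mice. In the interaction 2 passed. Libraries of the same number and different genotype deviated together from the group means at r −0.0004 (colon) and 0.125 (ileum), and colon and ileum libraries of the same number at 0.140 in WT and 0.142 in DDX5KO mice, over 16178 genes. The study describes cohoused littermate pairs and a harvest covariate, but the labels tie the number to neither, nor to one mouse across tissues, so what the number joins is not known.

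Each group had 2 mice, and with 1 left out the lone mouse was assumed to vary like the other groups. Genotype fits with a library left out had no replicate block and took in both tissues. The fit of all 8 libraries had the same form, and it called 9 members in the colon and 1 in the ileum. Members under the filter on counts were not compared.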
